A study of Mus musculus with 5 samples.

Results

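The BCL2 family was followed through RNA-seq of Neuro-2A (N2A) cells in which Upf1 had been knocked down. The 10 members were the rows of the deposited count table, out of 55573, whose symbol was that of a pro- or anti-apoptotic family gene: Bcl2, Bcl2l1, Mcl1, Bax, Bak1, Bbc3, Pmaip1, Bcl2l11, Bid and Bad. N2A cells derive from a mouse neuroblastoma, and cells of every library had received 60 pmol of siRNA. There were 2 libraries from cells given a commercial non-targeting siRNA (siCtl, replicates 1 and 3) and 3 from cells given an siRNA against Upf1 (siUpf1, replicates 1, 2 and 3). The comparison asks how family mRNAs differ when UPF1, the RNA helicase that nonsense-mediated mRNA decay (NMD) depends on, is depleted. A single siRNA against Upf1 was used in a single cell line, so an effect of lower UPF1 and an effect of that siRNA on other mRNAs cannot be told apart. The study describes western blots of such cells as coming from independent experiments, but the labels of these libraries only number the replicates, so p-values measure the spread between these libraries, which may be technical.

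BCL2 family proteins decide whether the mitochondrial outer membrane stays closed. Guardians (BCL2, BCL-XL from Bcl2l1, MCL1) bind and hold in check the pore-forming effectors (BAX, BAK from Bak1), and BH3-only proteins (PUMA from Bbc3, NOXA from Pmaip1, BIM from Bcl2l11, BID, BAD) carry death signals by occupying the guardians or by activating the effectors. When effectors form pores, cytochrome c leaves the mitochondrion and caspases are activated. In neurons, BCL-XL and MCL1 are the guardians needed for survival during development, and BAX is the effector that most developmental neuronal death relies on.

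The libraries held between 20402205 and 27717594 assigned reads, and between 21757 and 23215 genes had a read. Upf1 was at 5217 and 5243 normalised read counts (counts divided by DESeq2's size factor of the library) in siCtl and at 2403, 2496 and 2449 in siUpf1, a fall to 46.8% of the siCtl mean (log2 fold change -1.10 ± 0.05 SE). Of 14 neuronal and neuroblastoma markers, 11 had a mean of at least 100 normalised counts, while the neurofilament genes Nefl and Nefm were near 0. The summed level of these markers was 1885 to 2010 TPM (transcript level as counts per exonic base, scaled to sum to 1000000 in each library) in siCtl and 2074 to 2413 in siUpf1. The part of this shift in the results that follow was not tested. Defining markers of fibroblasts, blood cells, epithelia and glia were low, with 2 of 19 (Pdgfra and Mbp) at a mean of 100 or more, and their summed levels stayed under 9 TPM per list in each library. Bulk RNA cannot separate fewer cells expressing a gene from less RNA per cell.

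The siRNA against Upf1 is shown because only the siUpf1 cells received it. The siCtl cells received a different, non-targeting siRNA, whose sequence was not examined. The 2 strands of the Upf1 siRNA are written 5′ to 3′ with bases 2 to 8, the seed of each strand, in capitals.
Upf1 siRNA, sense strand: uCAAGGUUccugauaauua
Upf1 siRNA, guide strand: uAAUUAUCaggaaccuuga
The 19-nt sense strand matched the coding sequence of Upf1 in full, at bases 1445 to 1463 of the transcript Upf1-201, over the exon junction that ends exon 8 (GRCm38 chr8:70339429-70339757, minus strand, intron included), and it matched no annotated transcript of another gene. The 7-mers complementary to the seeds are GATAATT for the guide and AACCTTG for the sense strand, both looked for on the mRNA strand. None of the 52 annotated transcripts of the 10 members, of which 32 have a 3′ untranslated region (UTR), held either 7-mer in its 3′ UTR. Over the 12708 mRNAs tested, 15.7% held at least 1 of them. This describes the letters of the annotated UTRs, and pairing outside the seed was not examined.

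Of the 10 members, 9 had reads and passed the filter on low counts. Bcl2 rose, Bak1 and Bax fell, and 6 others were not called at an adjusted p-value under 0.05. The 3 of 9 called members stand beside 44.9% of 15191 genes called, 22.0% higher and 22.9% lower, and this share is no result about the family. The groups did not overlap for 5 of the 9 members, against 69.4% of all genes tested. The median log2 fold change of the 9 was -0.10, beside -0.002 over all genes tested. The members lie on 8 chromosomes.

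**Figure D1:**
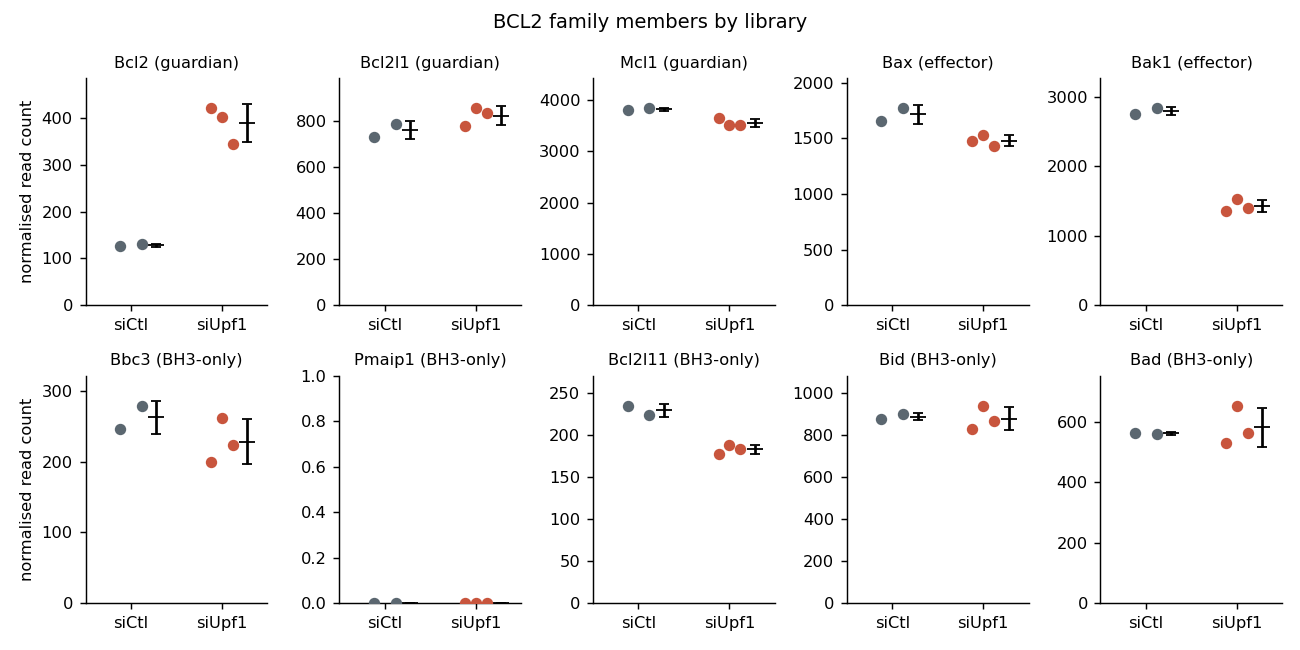
Normalised read counts (vertical axes from 0, a scale per gene) of the 10 members, 1 point per library, with the mean and SD of each group as the black bar beside the points. Bcl2 is at 126 and 130 in siCtl and 345 to 422 in siUpf1, Bak1 is at 2748 and 2836 against 1355 to 1527, and Pmaip1 is at 0 throughout.

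Among the guardians, Bcl2 was the only one called. Bcl2 (chr1:106538178-106714274, minus strand, GRCm38), the founding anti-apoptotic gene of the family, had 125.8 and 130.2 normalised read counts in siCtl and 421.6, 401.6 and 345.0 in siUpf1. All siUpf1 libraries lay far above both siCtl libraries. Bcl2 was thus 3.04-fold higher, from 128 ± 3.11 (SD, n = 2) to 389 ± 39.7 (SD, n = 3) normalised counts. The log2 fold change was 1.60 ± 0.16 SE (95% interval 1.29 to 1.92, adjusted p = 4.63e-22, DESeq2 Wald test). Only 0.856% of the genes tested had a log2 fold change at or above it. The values rest on 120 and 138 reads in siCtl, against 2622 and 3006 reads for Bak1.

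The guardians that neurons rely on differed little between the groups. Mcl1, which encodes a short-lived protein, had 3801 and 3842 normalised counts in siCtl and 3643, 3512 and 3506 in siUpf1. The groups did not overlap, yet the log2 fold change of -0.10 ± 0.05 SE (95% interval -0.20 to -0.01) had an adjusted p of 0.0804 in DESeq2. Bcl2l1, the gene of BCL-XL, had 730.6 and 786.8 counts in siCtl and 776.4, 854.7 and 833.5 in siUpf1. Here the lowest siUpf1 library lay between the siCtl libraries, and the log2 fold change was 0.11 ± 0.09 SE (95% interval -0.07 to 0.29, DESeq2 adjusted p = 0.341). Alternative splicing of Bcl2l1 makes a long, protective and a short, pro-apoptotic form, which gene counts do not separate.

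Both effectors among the members fell. Bak1 (chr17:27019810-27029009, minus strand), whose product sits in the mitochondrial outer membrane, had 2748 and 2836 normalised counts in siCtl and 1355, 1527 and 1394 in siUpf1. The highest siUpf1 library lay far below the lower siCtl library. Bak1 thus fell from 2792 ± 61.9 (SD, n = 2) to 1425 ± 90.6 (SD, n = 3), or 51.0% of the siCtl mean. Its log2 fold change of -0.97 ± 0.07 SE (95% interval -1.10 to -0.84) had an adjusted p of 8.06e-46 in DESeq2. Of all genes tested, 2.92% had a log2 fold change at or below it.

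Bax (chr7:45461697-45466898, minus strand), whose product moves from the cytosol to mitochondria when activated, changed far less. It had 1656 and 1772 normalised counts in siCtl and 1475, 1527 and 1432 in siUpf1. The siUpf1 libraries all lay below the siCtl libraries, by a margin of the same order as the spread within siCtl. Its log2 fold change was -0.22 ± 0.07 SE (DESeq2 adjusted p = 0.00555). Without siCtl replicate 3 it was -0.17 (adjusted p = 0.191) and without siUpf1 replicate 3 it was -0.19 (adjusted p = 0.0602), so the call for Bax rests on these libraries. Bax shares 192 exonic bases, 12.2% of its exons, with Gm45808 on the same strand, which had no reads. Reads over such shared bases may be assigned to neither gene, so the level of Bax may be understated, which was not examined.

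Bak1 is the called member with annotated NMD transcripts, and the short exon of one of them is shown for that reason. Of 4 annotated Bak1 transcripts, 2 are classed as NMD targets in GENCODE M21. The transcript Bak1-201 contains a 20-nt exon (chr17:27021663-27021682, minus strand, GRCm38) that the main coding transcript Bak1-202 lacks. It is written 5′ to 3′ on the mRNA strand in capitals, with 5 bases of the neighbouring exons on either side.
Bak1-201, 20-nt exon: tccagGCCAGCAGCAACATGCACAGcctat
With this exon, the reading frame stops 89 nt upstream of the last exon junction, whereas the stop codon of Bak1-202 is in the last exon. As background, a stop codon well upstream of an exon junction marks an mRNA for NMD, and inclusion of a short exon in Bak1 mRNA in neurons, which the splicing repressor PTBP1 prevents in other cells, is known to lower BAK. The deposited counts are per gene, so the share of Bak1 mRNA with this exon was not measured here. Ptbp1 had 18338 and 18727 normalised counts in siCtl and 13128, 13789 and 13886 in siUpf1, and its fall (log2 fold change -0.45 ± 0.04 SE, DESeq2 adjusted p = 1.92e-26) went with that of Bak1. Its part in the level of Bak1 was not tested.

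None of the BH3-only members was called. Bcl2l11, the gene of BIM, which binds all guardians, had 234.8 and 223.6 normalised counts in siCtl and 177.9, 188.3 and 182.7 in siUpf1. The groups did not overlap, and the log2 fold change was -0.33 ± 0.16 SE (95% interval -0.65 to -0.004, DESeq2 adjusted p = 0.0945). edgeR's quasi-likelihood test gave -0.32 with an adjusted p of 0.0136, so the call for Bcl2l11 depended on the test. Bbc3, the gene of the p53-induced protein PUMA, had 246.3 and 279.3 counts in siCtl and 199.2, 262.3 and 223.7 in siUpf1. The groups overlapped, and the log2 fold change of -0.21 ± 0.16 SE had a 95% interval from -0.53 to 0.11 (DESeq2 adjusted p = 0.312).

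Bid and Bad gave the smallest differences of the family. Bid, which caspase-8 cleaves into its active form, had a mean of 888 ± 18.2 normalised counts over the siCtl libraries (SD, n = 2) and 879 ± 56.4 over the siUpf1 libraries (SD, n = 3), with a log2 fold change between -0.19 and 0.16 at 95% confidence. Bad, which phosphorylation by survival kinases inactivates, had 562 ± 4.59 in siCtl and 582 ± 63.9 in siUpf1, with a 95% interval from -0.17 to 0.27. For both genes siUpf1 replicate 2 was the highest library. The intervals leave room for changes of such size and do not show that the levels were equal. Pmaip1, the gene of NOXA, a selective binder of MCL1, had 0 counts in each of the 5 libraries, which allows at most 0.108 to 0.147 CPM (counts scaled to library size, from 3 counts of each library's total, for counting error only). No fold change can be given for it.

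**Figure D2:**
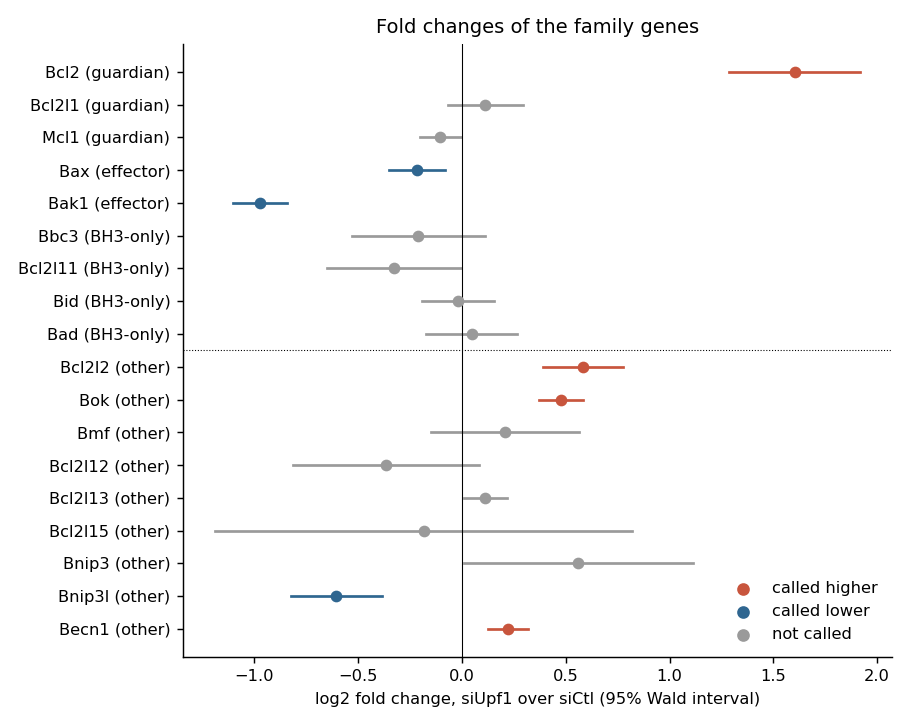
Log2 fold change of siUpf1 over siCtl (horizontal axis, points) with its 95% Wald interval (lines) for the 9 tested members, above the dotted line, and for 9 further family genes, below it, coloured by call. Bcl2 at 1.60 and Bak1 at -0.97 lie farthest from 0, Bcl2l2 and Bok lie above it and Bnip3l lies below it.

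Levels were compared between genes per length, in TPM. In siCtl the most abundant members were Bak1 (129 ± 7.89 TPM, SD, n = 2), Mcl1 (124 ± 5.79) and Bax (121 ± 10.5), whose ranges over the libraries overlapped. With the length of 1 representative transcript per gene, Bax stood above both in siCtl, at 159 ± 11.7 TPM against 93.9 ± 4.51 for Bak1 and 89.7 ± 3.00 for Mcl1. On exon length, Bid followed in siCtl at 27.7 TPM, Bad at 24.3, Bcl2l1 at 18.4 and Bbc3 at 13.7, each without overlap with the next. Bcl2l11 at 3.16 TPM and Bcl2 at 1.55 were the least abundant members with reads. In siUpf1, on exon length again, Mcl1 (114 ± 13.4 TPM, SD, n = 3) and Bax (103 ± 8.80) overlapped and led, and Bak1 stood below both at 64.6 ± 2.66. Bcl2, at 4.66 TPM, had passed Bcl2l11, at 2.49, but remained under Bbc3, at 11.7. Even after its rise Bcl2 was thus among the scarcest members. The order at the top of siUpf1 depended on the length used. With representative lengths, Bax led the members there, at 138 ± 8.79 TPM (SD, n = 3) against 84.5 ± 8.08 for Mcl1, without overlap.

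**Figure D3:**
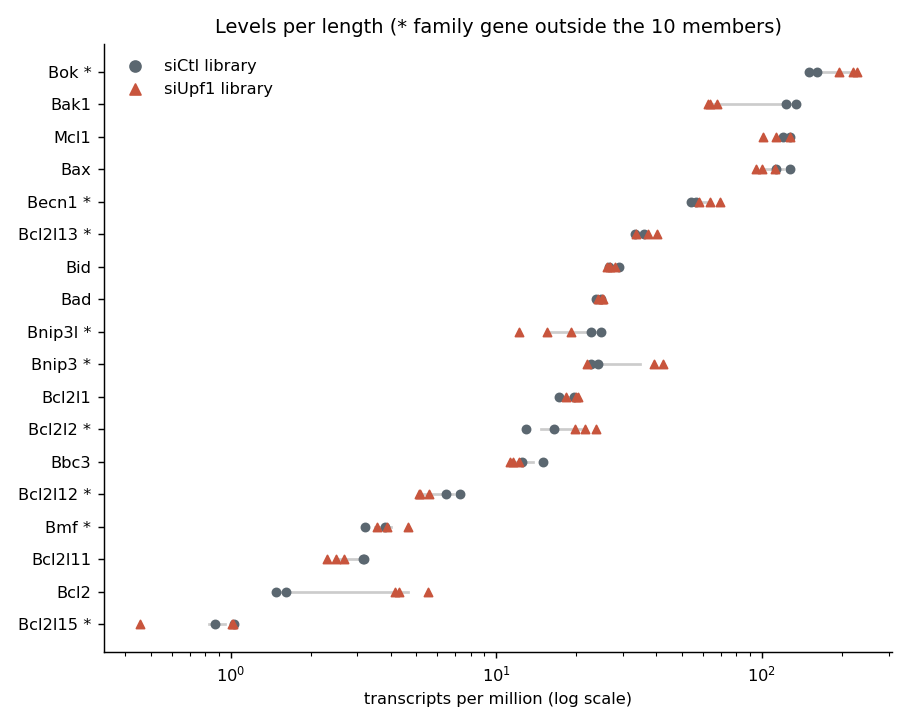
Levels in TPM (horizontal axis, log scale) of the members with reads and of 9 further family genes (marked *), 1 circle per siCtl library and 1 triangle per siUpf1 library, with a grey line between the group means, ordered by level in siCtl. Bok leads at 156 TPM in siCtl and 214 in siUpf1, and Bak1 and Bcl2 show wide gaps between the groups.

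Ratios within a library do not depend on its depth. Bcl2 per Bak1, on the TPM scale, was 0.0120 and 0.0121 in siCtl and 0.0818, 0.0691 and 0.0650 in siUpf1, a 5.97-fold higher mean. Bax per Bak1 was 0.920 and 0.954 in siCtl and 1.66, 1.53 and 1.57 in siUpf1, and it was higher in all siUpf1 libraries. The level of Bax depends on the length used, since its exons together span 1576 nt and its main transcript 867 nt. With the length of 1 representative transcript per gene, Bax per Bak1 was 1.69 ± 0.04 in siCtl and 2.86 ± 0.13 in siUpf1, so which of the pair was more abundant in siCtl is not settled here. Bak1 accounted for 51.6% ± 0.64 (SD, n = 2) of the summed TPM of Bax and Bak1 in siCtl and for 38.7% ± 1.03 once Upf1 was knocked down (SD, n = 3), or for 37.2% and 25.9% with representative lengths. Among the 3 guardians, Mcl1 held 86.2% of the summed TPM in siCtl and 82.4% in siUpf1, and Bcl2 held 1.08% and 3.37%. With 2 libraries against 3, an exact permutation test cannot give a two-sided p under 0.1, so the ratios are given as values without a test.

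Summed by role, the guardians came to 144 ± 7.57 TPM (SD) in siCtl and 138 ± 15.0 in siUpf1, with overlap between the groups. The sum of Bax and Bak1 was 236 and 262 TPM in siCtl and 180, 158 and 164 in siUpf1, without overlap. The 4 BH3-only members with reads summed to 69.0 ± 4.18 TPM in siCtl and 65.9 ± 0.89 in siUpf1, with overlap. The guardian sum per sum of Bax and Bak1 was 0.577 ± 0.012 in siCtl and 0.825 ± 0.037 in siUpf1. This ratio depended on which genes were counted. Once the effector Bok and the guardian Bcl2l2, both outside the 10 members, were added, it was 0.391 and 0.391 in siCtl and 0.436, 0.408 and 0.412 in siUpf1, and the effector sum was 405 ± 25.6 and 381 ± 27.6 TPM, with overlap.

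**Figure D4:**
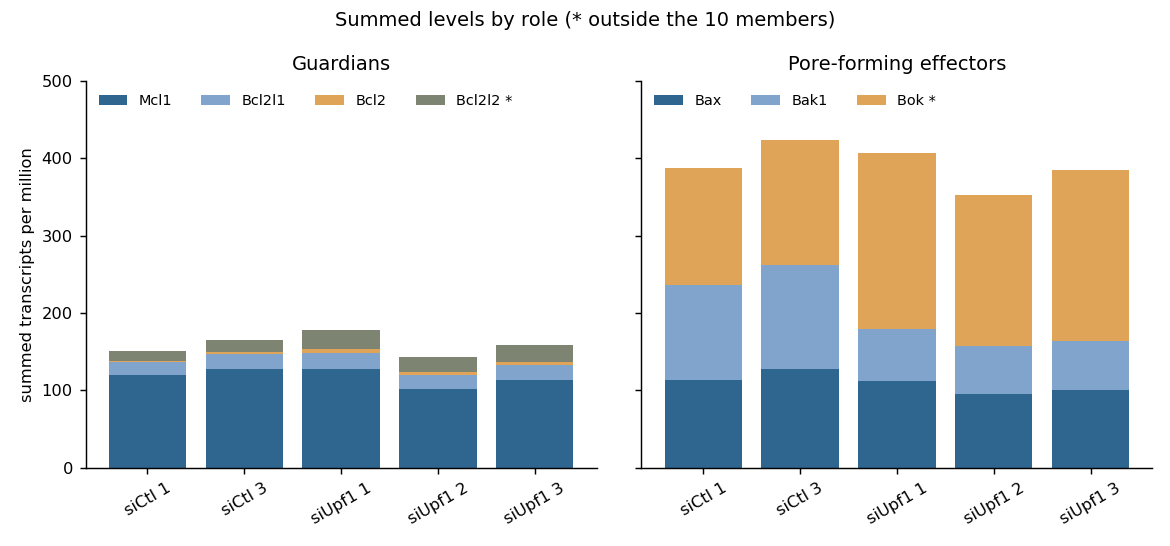
Summed TPM (vertical axis, from 0) of guardian genes, left, and of pore-forming effector genes, right, as stacked bars, 1 bar per library, with genes outside the 10 members marked *. The Bak1 segment is smaller and the Bok segment larger in the siUpf1 libraries, while Mcl1 makes up most of each guardian bar.

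The members were also compared in features that the choice of genes did not use. A 3′ UTR of at least 1000 nt was annotated in the representative transcript of 6 of the 9 tested members, beside 49.4% of tested mRNAs, and at least 1 upstream ATG in the 5′ UTR of 7 of the 9, beside 51.6%. Long 3′ UTRs and upstream reading frames are features that can draw UPF1-dependent decay. Upstream ATGs were only counted, and the reading frames they may open were not traced. The part of these features in the change of any member was not tested. Among the members, Bcl2 had the longest 5′ UTR, of 1394 nt with 11 upstream ATGs, and the longest 3′ UTR, of 5086 nt. Bcl2l11, with a 3′ UTR of 4218 nt, was not called, and Mcl1, with 2353 nt, was not called either. Bak1, which fell, had a 3′ UTR of 1121 nt and 4 upstream ATGs. An annotated NMD transcript was present for 2 members, Bak1 and Bid, beside 28.4% of tested mRNAs. The median log2 fold change over all tested mRNAs was -0.04 with such a transcript and -0.02 without. It was 0.05 with a 3′ UTR of at least 1000 nt and -0.08 with a shorter one, and 0.008 with an upstream ATG and -0.05 without.

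The remaining family genes formed a list of 16, of which 9 were tested, with 3 higher, 1 lower and a median log2 fold change of 0.21. Bok, the effector that can form pores without other family proteins, was the most abundant family gene per exon length (with representative lengths Bax led in siCtl, at 159 against 141 TPM). It rose from 2573 and 2600 normalised counts in siCtl to 3485, 3636 and 3697 in siUpf1 (log2 fold change 0.48 ± 0.05 SE, DESeq2 adjusted p = 2.13e-17). Bcl2l2, the gene of the guardian BCL-W, had 537.7 and 646.3 counts in siCtl and 885.8, 898.6 and 878.9 in siUpf1, and also rose (0.58 ± 0.10 SE, DESeq2 adjusted p = 2.15e-08). Both had siUpf1 libraries wholly above the siCtl libraries. Becn1, the autophagy gene with a BH3 domain that BCL2 binds, rose by 0.22 ± 0.05 SE on the log2 scale. Bnip3l, a mitophagy receptor, fell by 0.60 ± 0.11 SE on the log2 scale (DESeq2 adjusted p = 5.21e-07).

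Bnip3, a paralog of Bnip3l and likewise a mitophagy receptor, had 479.0 and 479.3 normalised counts in siCtl and 803.1, 504.5 and 811.2 in siUpf1, with siUpf1 replicate 2 close to siCtl. Its log2 fold change of 0.56 ± 0.28 SE was not called (DESeq2 adjusted p = 0.0928), and without siUpf1 replicate 2 it was 0.75 (adjusted p = 7.82e-10). With all libraries, edgeR's quasi-likelihood test called it higher (0.59, adjusted p = 0.00240), so the call depended on the test as well. The BH3-only gene Bmf and the family genes Bcl2l12, Bcl2l13 and Bcl2l15 were not called, with log2 fold changes of 0.21, -0.37, 0.11 and -0.18. Of the 7 untested genes, the 3 Bcl2a1 genes had no reads, and Bcl2l10, Hrk, Bik and Bcl2l14 had means under 7 normalised counts.

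Beyond the family, 6 lists covered steps upstream and downstream of it, and with the remaining family genes the 7 lists had 83 of 93 genes tested, with 19 higher and 29 lower. Downstream of the pore, 9 of 19 apoptosome and caspase genes were called, 5 higher and 4 lower, with a median log2 fold change of 0.00. Apaf1, the scaffold that cytochrome c assembles into the apoptosome, fell by 0.74 ± 0.10 SE on the log2 scale, and Parp1, a caspase substrate, rose by 0.49 ± 0.05 SE. Of 8 tested genes on the death receptor route that leads to Bid cleavage, none was higher and 4 were lower, with a median of -0.24. Only 1 was lower when siCtl replicate 3 was left out, and 2 when siCtl replicate 1 or siUpf1 replicate 3 was. Ripk1, a receptor-bound kinase, fell by 1.00 ± 0.11 SE, from 726.6 ± 5.62 to 363.5 ± 20.7 normalised counts. The calls for Traf2 (-0.25) and Casp8 (-0.50), an adaptor and the caspase that cleaves BID, were each lost without siCtl replicate 3 (adjusted p = 0.112 and 0.240, DESeq2), and that for Casp8 also without each of the other libraries (adjusted p between 0.0718 and 0.139).

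Of 13 genes listed as partners of the mitochondrial outer membrane, 1 was higher and 3 were lower, with a median log2 fold change of -0.04. Not all of their products sit in that membrane. Mfn1 and Mfn2, the paired mitofusins that tether and fuse mitochondria, went opposite ways, with Mfn1 at -0.93 ± 0.08 SE and Mfn2 at 0.28 ± 0.04 SE. Ppif, cyclophilin D of the inner membrane pore, had a log2 fold change of -0.26 and lost its call without siCtl replicate 1 (-0.23, DESeq2 adjusted p = 0.0811). Of 10 tested transcription factors that act on family genes, 3 were higher and 5 were lower, with a median of -0.16. Mycn, the neuroblastoma oncogene, rose by 1.34 ± 0.12 SE and E2f1, a cell cycle factor, by 0.89 ± 0.06 SE, while Stat3, which can activate Bcl2, Bcl2l1 and Mcl1, fell by 0.68 ± 0.05 SE on the log2 scale.

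Genes whose products bind or turn over family proteins were called in 10 of 11 cases, 6 higher and 4 lower, with a median of 0.20. Without siCtl replicate 1 there were 4 higher and 1 lower, and 2 were lower without siCtl replicate 3, as without siUpf1 replicate 3. Without siUpf1 replicate 1, 4 were higher. Btrc, an adaptor of a ubiquitin ligase, rose by 0.57 ± 0.10 SE, and Mapk8 (JNK1), which phosphorylates BCL2 and BIM, by 0.30 ± 0.07 SE. Dynll2, the dynein light chain that binds BMF, rose by 0.26 ± 0.05 SE. RNA-binding regulators of family mRNAs were lower in 8 of 13 cases and higher in 1, with a median of -0.17. Besides Ptbp1, these included Zfp36, which speeds the decay of AU-rich mRNAs (-0.80 ± 0.12 SE), and Hnrnpf, a regulator of Bcl2l1 splicing (-0.38 ± 0.06 SE). Counts and medians of lists this small are descriptions beside the background of 22.0% higher and 22.9% lower. That background covers all genes tested and was not matched to the read counts of the lists. Among tested mRNAs, 54.7% of those with a 3′ UTR of at least 1000 nt were called in either direction. The share was 52.2% of those with an upstream ATG.

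**Figure D5:**
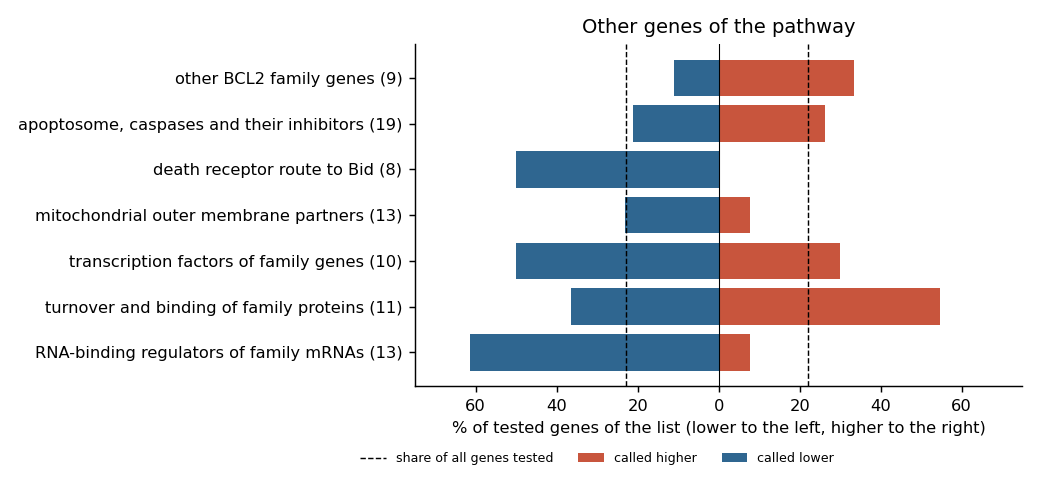
Share of the tested genes of each list called higher in siUpf1 (to the right) or lower (to the left) in percent, with the number tested in brackets and, as dashed lines, the shares over all genes tested (22.0% and 22.9%). RNA-binding regulators reach farthest to the left, with 8 of 13 lower, and genes that bind or turn over family proteins farthest to the right, with 6 of 11 higher.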

How the data were processed

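RNA-seq libraries were made from poly(A) RNA of N2A cells with a stranded kit. The authors trimmed reads with fastp, aligned them to GRCm38.p6 with STAR (2.7.0f in the submitters' processing notes) and deposited raw read counts per gene, counted on the reverse strand over exons by featureCounts (Subread 1.6.4) with GENCODE M22 or M25. The counts were left unscaled, with a column per library. The total per library was 20402205 to 27717594 reads. Floors for counts of 0 cover counting error only, while intervals of fold changes also hold the spread between libraries as DESeq2 estimates it.

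Groups were taken from the labels. siUpf1 was tested against siCtl over all genes with DESeq2's Wald test (1.42.0, R 4.3.3; design of group alone, size factors by median of ratios, Benjamini-Hochberg adjustment after independent filtering, calls at 0.05). The study's methods name DESeq2 and that threshold, and the remaining settings are the tool's defaults. edgeR 4.0.16 (quasi-likelihood) and 11 further alternatives were run. The code was tested on simulated data. TPM were computed from the counts and the union of exons in GENCODE M21 (same build; 99.7% of identifiers matched), which also gave coordinates and transcripts.

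The members and lists were chosen with earlier results of these data known. Named were the members, Upf1, other family genes averaging 10 or more normalised counts, and up to 3 called genes per other list with the largest change and an average of 100 or more. Family genes under that mean, untested, and the marker genes are named outside that rule. Opposite-strand neighbours overlap Bcl2, Bak1, Bid and Bad, where strand-specific counting separates them, and no 100-base stretch of a member's transcript is shared with a gene elsewhere. Some genes that the rule or the lists include are not reported here by name.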

Additional observations from a re-analysis of the deposited data

How the results depend on the processing

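Over 12 alternatives, the log2 fold change of Bcl2 lay between 1.52 and 1.69 and that of Bak1 between -1.02 and -0.94, and neither call was lost. edgeR's quasi-likelihood test called 3 members lower, adding Bcl2l11. With the trend on transcript length and GC content removed, 4 members were lower, adding Mcl1 (-0.11, adjusted p = 0.0292) and Bcl2l11 (-0.38, 0.0399). Leaving out a library gave 1 to 2 members lower, 2393 to 2944 genes higher and 2374 to 3115 lower; where a siCtl library was left out, the lone one was assumed to vary like the siUpf1 libraries. Deviations of same-numbered libraries from their group means had r = -0.087 and -0.076 over 11898 genes. With 2 siCtl libraries the siCtl deviations mirror each other, so these values cannot show whether the replicate numbers pair the libraries. With a replicate block, siUpf1 replicate 2 has no siCtl library of its number, so the group difference rests on replicates 1 and 3. In that fit 1 member (Bak1) was lower (Bax -0.24, DESeq2 adjusted p = 0.129), as were 16 list genes. Over the table, 1957 genes were higher and 1962 lower with the block. Becn1 (0.21, DESeq2 adjusted p = 0.0755), Dynll2 (0.22, 0.0584), Traf2 (-0.28, 0.105), Ppif (-0.29, 0.0606) and Casp8 (-0.50, 0.278) were not called with that block. Bnip3 was called with it (0.75, 7.42e-05), where siUpf1 replicate 2 does not inform the group difference, and with the trend removed (0.65, 0.0317). Using the length of 1 representative transcript, the guardian sum per sum of Bax and Bak1 was 0.455 in siCtl and 0.615 in siUpf1, and Bcl2 per Bak1 was 0.0152 and 0.0909. The sign of 3 uncalled genes changed. The log2 fold change of Bid was 0.00284 with total-count scaling, 0.0362 with the trend removed and between -0.0660 and 0.0233 with a library left out. That of Bad was -0.0395 with the block and between -0.0391 and 0.111 with a library left out. That of Bcl2l15 was 0.0478 with the block and between -0.363 and 0.0458 with a library left out. Of 28 named genes that are no members, 5 lost a call and 3 gained one in at least 1 alternative. Depth limits Bcl2, Bcl2l11 and Bbc3, with 120 to 296 reads per siCtl library, and Pmaip1, without reads. No result was tested for outlying libraries, since groups of 2 and 3 are too small for it.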
